A study of Mus musculus with 48 samples.

Results

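Scavenger receptors and 2 proteins that work beside them were followed through 48 macrophage libraries. The set is 9 of the 51789 gene IDs in the count table: the receptors Marco, Msr1, Cd36, Scarb1, Scarb2, Olr1 and Stab1, the secreted scavenger-family protein Cd5l, and Dab2, an adaptor of endocytosis. Members were taken by symbol. Marco was picked for its rise in M1 macrophages and in p53 KO M0 macrophages after AP-3-84, and Dab2 for its fall in p53 KO M2 macrophages after AP-3-84. Members were thus chosen by the levels measured in those contrasts, which are given below as values with no test. All 9 genes were found, and all 9 passed the filter on low counts in both fits.

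The series compared macrophages of 8 populations kept for 4 h in DMSO vehicle or in 10 µM AP-3-84, known here by its code name alone, at 3 libraries per group and 16 groups in all. Ascites macrophages were F4/80+ cells (strain C57BL/6, genotype field B6(Cg)-Tyrc-2J/J) taken with magnetic beads from the peritoneal wash of mice that carried ID8, a mouse ovarian cancer line, 45 days after its injection. Thioglycolate macrophages (thio) were F4/80+ cells of wild-type C57BL/6 mice, taken in the same way 4 days after 1 ml of 3% thioglycolate, an irritant that recruits macrophages to the peritoneum. Bone marrow-derived macrophages were labelled wild-type (WT) or p53 KO, strain C57BL/6, and were grown from bone marrow hematopoietic stem cells in 10 ng/mL M-CSF for 6 days. For M0 cells the labels name no polarizing agent, M1 cells had a further 24 h with LPS at 100 ng/mL and IFN-γ at 50 ng/mL, and M2 cells had 24 h with IL-4 and IL-13, each at 10 ng/mL. The groups are written WT_M0, KO_M0 and so on. The genotype field names all bone marrow-derived libraries wild-type, while titles and descriptions separate WT from KO, and the grouping follows the latter. The p53 target Cdkn1a was high in the 18 WT libraries (563 to 1120 CPM, read counts scaled to a common library size) and low in the 18 KO ones (33.9 to 297 CPM). Trp53 itself overlapped, at 4.78 to 13.3 CPM in WT and 2.7 to 9.29 CPM in KO, and since the deleted part is not stated, a 3' tag outside it checks nothing. The labels do not say whether replicates were separate mice or cultures, so p-values measure the spread between these libraries, which may be technical.

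Scavenger receptors are membrane proteins of unrelated folds that bind modified lipoproteins, microbes, dying cells and other polyanionic ligands and carry them into the cell. Many of them are prominent on macrophages and are used to describe macrophage states, though several also serve other cells, such as SCARB1 in the liver and STAB1 in sinusoidal endothelium. MARCO and MSR1 are class A receptors with a collagen-like stalk, CD36, SCARB1 and SCARB2 form class B, OLR1 is a lectin-like class E receptor, and STAB1 is a large class H receptor. CD5L is a secreted protein of tissue macrophages with the cysteine-rich scavenger domain, and DAB2 links cargo receptors to clathrin.

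Promoter sequence (250 bases up to the annotated start, RefSeq, GRCm38.p6) was at hand for 7 of the 9 genes. It is printed for the gene that gave the set its name and for 3 genes whose levels moved most between populations or with the compound. Capitals mark matches, on either strand, to 6 motifs: AP-1 (TGANTCA), the antioxidant response element (TGACNNNGC), the PU.1 core (GAGGAA), the E-box (CACGTG), NF-kB (GGG and TTTCC with any 2 bases between) and STAT6 (TTC and GAA with any 4 bases between). The Marco window is chr1:120505025-120505274 (minus strand), the Olr1 window chr6:129507166-129507415 (minus strand), the Stab1 window chr14:31168642-31168891 (minus strand) and the Cd5l window chr3:87357631-87357880 (plus strand).
Marco: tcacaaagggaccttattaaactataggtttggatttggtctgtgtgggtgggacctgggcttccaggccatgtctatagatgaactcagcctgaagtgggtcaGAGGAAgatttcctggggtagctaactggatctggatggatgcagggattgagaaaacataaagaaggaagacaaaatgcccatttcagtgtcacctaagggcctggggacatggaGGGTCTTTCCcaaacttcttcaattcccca
Olr1: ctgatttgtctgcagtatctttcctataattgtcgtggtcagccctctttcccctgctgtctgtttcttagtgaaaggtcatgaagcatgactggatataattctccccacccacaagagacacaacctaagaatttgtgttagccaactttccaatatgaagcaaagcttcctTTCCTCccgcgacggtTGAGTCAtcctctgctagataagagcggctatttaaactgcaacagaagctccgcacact
Stab1: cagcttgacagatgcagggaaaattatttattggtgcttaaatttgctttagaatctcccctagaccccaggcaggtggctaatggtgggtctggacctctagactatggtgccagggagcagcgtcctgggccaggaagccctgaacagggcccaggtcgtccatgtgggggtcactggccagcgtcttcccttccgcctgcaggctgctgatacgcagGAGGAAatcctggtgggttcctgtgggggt
Cd5l: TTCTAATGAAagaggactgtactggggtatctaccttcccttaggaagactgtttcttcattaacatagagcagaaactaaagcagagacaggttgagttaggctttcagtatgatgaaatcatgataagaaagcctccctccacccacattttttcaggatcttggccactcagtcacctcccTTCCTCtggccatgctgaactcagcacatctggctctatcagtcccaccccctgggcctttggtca
The Marco window holds a PU.1 core and an NF-kB match, that of Olr1 an AP-1 match and a PU.1 core, that of Stab1 a PU.1 core, and that of Cd5l a PU.1 core and a STAT6 match. Of 32851 windows of this length, the PU.1 core occurs in 23.3%, NF-kB in 1.41%, AP-1 in 6.75% and STAT6 in 5.85%. Among the members not printed, the Scarb2 window holds an antioxidant response element (10.2% of windows), both Dab2 windows a PU.1 core, and the Cd36 window none of the 6. A match says only that these letters are present.

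The 12 peritoneal libraries held 15532373 to 19417581 counts each and the 36 bone marrow-derived ones 3081707 to 4645148, so low genes are measured less precisely in the latter. Macrophage markers were present in all libraries (summed level of 10 genes 6870 to 51200 CPM). The T cell markers (8 genes) summed to 18.1 to 536 CPM, nearly all from Il7r in peritoneal and KO_M0 libraries, while the defining marker Cd3e was at most 0.601 CPM. Their sum was 83.4 to 95.3 CPM in ascites vehicle and 464 to 508 CPM in thio vehicle. In KO_M0 it was 181, 204 and 237 CPM in vehicle and 27.7, 21.5 and 161 CPM after AP-3-84. Epithelial and mesothelial markers (9 genes) summed to 204 to 256 CPM in ascites and 5.15 to 6.75 CPM in thio. Neutrophil markers (8 genes) summed to 27.7 to 66.2 CPM in peritoneal libraries and 190 to 3840 CPM in bone marrow-derived ones. Of the latter, 3 libraries stood above 3000 CPM: WT_M2 vehicle replicate 1, KO_M2 vehicle replicate 3 and KO_M1 AP-3-84 replicate 1. In bone marrow-derived libraries S100a8 and S100a9 reached 2320 and 1430 CPM, while Ly6g and Mpo were at most 1.28 and 26.5 CPM. A high sum therefore does not show that neutrophils were present. Some groups did not sit together for a list of 15 genes that LPS and IFN-γ induce. It summed to 81200, 56600 and 37400 CPM in WT_M1 after AP-3-84, to 7510, 1720 and 962 CPM in the WT_M2 vehicle libraries, and to 2680, 2290 and 715 CPM in the KO_M0 libraries given AP-3-84, against 199 to 302 CPM in KO_M0 vehicle. The macrophage gene Adgre1 (F4/80) moved with it, at 2400, 1490 and 659 CPM in KO_M0 after AP-3-84 and 454 to 496 CPM in vehicle. In bulk RNA, fewer cells of a type and less RNA per cell cannot be told apart.

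Marco (ENSMUSG00000026390, chr1:120474538-120505024, minus strand) encodes a class A receptor that binds bacteria and particles. Its mean level spanned 335-fold across the 16 groups, the widest range among the 8 members with counts in every group. It was highest in M1. In WT_M1 vehicle it stood at 4950, 5480 and 5610 CPM, in KO_M1 vehicle at 2840, 3200 and 2110 CPM, and in WT_M0 vehicle at 1180, 2000 and 2100 CPM. The KO_M0 vehicle libraries were the lowest of the series, at 16.7, 17.3 and 14.0 CPM. WT_M1 and WT_M0 did not overlap, nor did KO_M1 and KO_M0. The fitted level was 3.06-fold higher in WT_M1 than in WT_M0 and 166-fold higher in KO_M1 than in KO_M0.

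After AP-3-84, the KO_M0 libraries stood at 2890, 2090 and 474 CPM (mean 1819 ± 1230, SD, n = 3, against 16.0 ± 1.77 in vehicle). All 3 were above every vehicle library, and replicate 3 was well below the other 2, as it was for the LPS and IFN-γ genes. The part of that state in the Marco level was not tested. Against the WT_M0 vehicle range, treated KO_M0 replicate 1 lay above, replicate 2 within and replicate 3 below. In M1 the compound left the ranges overlapping, at 5310, 5340 and 4230 CPM in WT_M1 and 1830, 2680 and 2870 CPM in KO_M1. These are the contrasts for which Marco was chosen, so they are a description.

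In peritoneal macrophages, Marco stood at 384, 352 and 373 CPM in ascites vehicle and at 40.7, 34.1 and 37.0 CPM in thio vehicle. The groups did not overlap, and the fitted level was 10.3-fold higher in ascites (log2 change 3.37, SE 0.08, edgeR's adjusted p = 5.9e-15). Tumour, mouse genotype field and time differ together between these groups, so their parts cannot be told apart. AP-3-84 made no called difference there, with log2 fold changes of 0.07 in ascites (edgeR's adjusted p = 0.815) and 0.17 in thio (edgeR's adjusted p = 0.329).

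In M2, Marco was low in all libraries but 1. WT_M2 vehicle stood at 1090, 133 and 85.5 CPM, WT_M2 after AP-3-84 at 139, 144 and 45.9 CPM, KO_M2 vehicle at 87.0, 46.3 and 99.2 CPM, and KO_M2 after AP-3-84 at 97.4, 88.2 and 67.0 CPM. The high library, WT_M2 vehicle replicate 1, is the one with the high neutrophil and LPS and IFN-γ sums. Against WT_M0, the log2 fold change of WT_M2 was -2.00 (SE 0.64) with that library and -4.03 without it. For KO_M2 against WT_M2 it was -2.50 (SE 0.66, edgeR's adjusted p = 0.0344) with it and -0.49 without it (edgeR's adjusted p = 0.629). KO_M2 was above KO_M0 by 2.24 (SE 0.71), and KO_M0 was below WT_M0 by -6.74 on the log2 scale (SE 0.82). The comparisons with M0 share vehicle libraries with those that chose Marco, so they are a description with no p. Across the 16 groups in order of mean level, neighbours overlapped in 10 of 15 steps. The steps without overlap were from WT_M1 to KO_M1, from WT_M0 to WT_M2, from ascites to WT_M2 after AP-3-84, from KO_M2 to thio and from thio to KO_M0 vehicle.

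**Figure D1:**
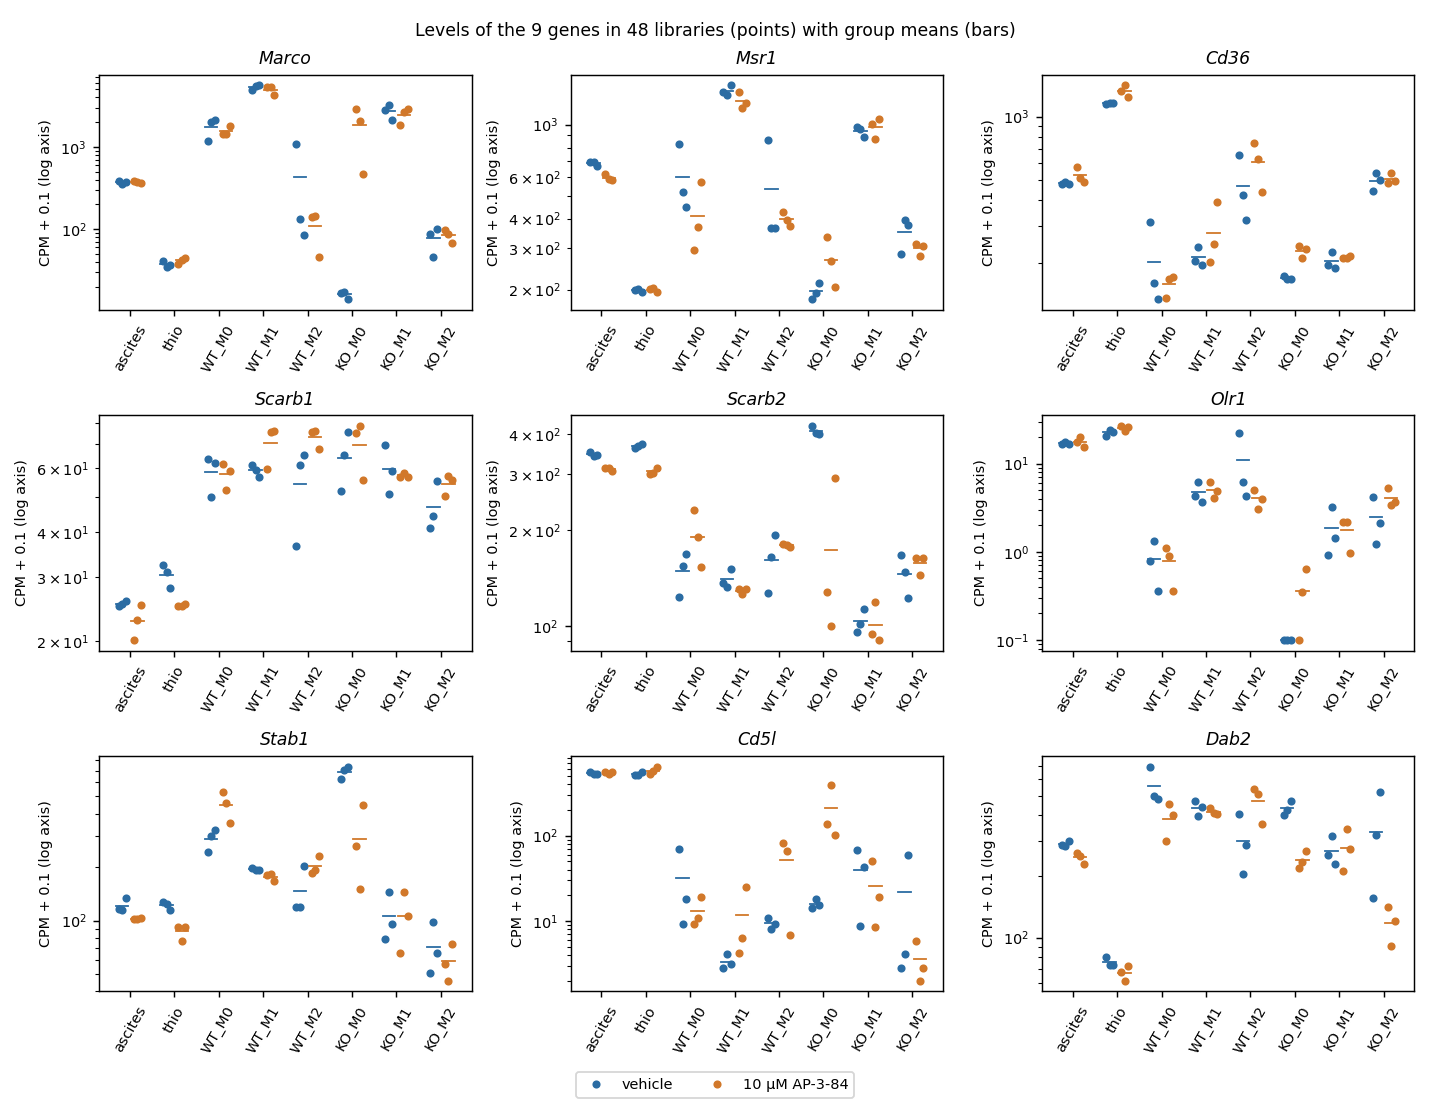
Level of each of the 9 genes (CPM + 0.1, log axis) in every library: points are libraries, bars are group means, blue is vehicle and orange is 10 µM AP-3-84, over 8 populations. Marco is highest in WT_M1 (4950 to 5610 CPM in vehicle) and lowest in KO_M0 vehicle (14.0 to 17.3 CPM), and Olr1 has 0 counts in KO_M0 vehicle.

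Msr1 (ENSMUSG00000025044, chr8:39581685-39642673, minus strand), the class A receptor that takes up acetylated lipoprotein, was also highest in M1. WT_M1 vehicle stood at 1370, 1340 and 1470 CPM against 826, 520 and 448 CPM in WT_M0, a rise with a log2 fold change of 1.23 (SE 0.25, edgeR's adjusted p = 0.0012). KO_M1 vehicle stood at 980, 960 and 885 CPM against 182, 194 and 214 CPM in KO_M0 (log2 change 2.23, SE 0.26, edgeR's adjusted p = 1.61e-07). Neither pair of groups overlapped. KO_M0 was lower than WT_M0 by -1.56 on the log2 scale (SE 0.26, edgeR's adjusted p = 4e-05), also with no overlap. In KO_M2, at 284, 393 and 376 CPM, Msr1 was higher than in KO_M0 by 0.80 (SE 0.25, edgeR's adjusted p = 0.0140). That call was lost without KO_M0 vehicle replicate 1 or KO_M2 vehicle replicate 2 (edgeR's adjusted p = 0.0523 and 0.0568, from 0.000138 to 0.0568 across the alternatives run).

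Ascites macrophages held more Msr1 than thio macrophages, at 693, 697 and 668 CPM against 199, 201 and 195 CPM (log2 change 1.85, SE 0.05, edgeR's adjusted p = 4.19e-14). No AP-3-84 response of Msr1 was called. The ascites libraries given AP-3-84, at 617, 587 and 584 CPM, all lay below the vehicle libraries, yet the difference did not pass the test (log2 change -0.16, SE 0.05, edgeR's adjusted p = 0.201). In WT_M2 vehicle, replicate 1 stood at 862 CPM and the other 2 at 366 and 366 CPM, so this library was high for Msr1 as well.

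Cd36 (ENSMUSG00000002944, chr5:17781690-17888801, minus strand), a class B receptor for oxidized lipoprotein and fatty acids, had its highest level in thio macrophages. Vehicle libraries stood at 1150, 1160 and 1160 CPM in thio and 476, 490 and 479 CPM in ascites, and the log2 fold change of ascites against thio was -1.20 (SE 0.07, edgeR's adjusted p = 2e-10). In bone marrow-derived cells it was higher in M2. WT_M2 vehicle stood at 653, 424 and 323 CPM against 315, 162 and 135 CPM in WT_M0 (log2 change 1.19, SE 0.25, edgeR's adjusted p = 0.000694). KO_M2 stood at 441, 538 and 501 CPM against 174, 169 and 169 CPM in KO_M0 (log2 change 1.50, SE 0.25, edgeR's adjusted p = 2.52e-05). M2 and M0 did not overlap in either genotype. The WT call was lost when only the libraries of the 2 groups were fitted (edgeR's adjusted p = 0.0808, from 1.19e-08 to 0.0808 across the alternatives run). After AP-3-84 the thio libraries stood at 1330, 1410 and 1240 CPM, above all vehicle libraries, but the difference did not pass the test (log2 change 0.21, SE 0.07, edgeR's adjusted p = 0.0897).

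Scarb1 (ENSMUSG00000037936, chr5:125277087-125341094, minus strand), the receptor that exchanges cholesterol with high-density lipoprotein, varied least, with a 3.23-fold span of group means. Library values ran from 20.0 to 32.2 CPM in peritoneal macrophages and from 36.4 to 78.2 CPM in bone marrow-derived ones. KO_M2 was lower than KO_M0 by -0.49 on the log2 scale (SE 0.18, edgeR's adjusted p = 0.0315), although the libraries overlapped (40.8, 44.1 and 55.0 CPM against 51.7, 65.1 and 75.1 CPM). The call was lost without any of 4 libraries, namely KO_M0 vehicle replicates 2 and 3 (edgeR's adjusted p = 0.0642 and 0.177) and KO_M2 vehicle replicates 1 and 2 (0.127 and 0.0956), with 0.00812 to 0.177 across the alternatives run.

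Scarb2 (ENSMUSG00000029426, chr5:92441314-92506833, minus strand), the lysosomal member of class B that carries glucocerebrosidase to the lysosome, behaved otherwise. KO_M0 vehicle had the highest level of all groups, at 425, 404 and 402 CPM. WT_M0 vehicle stood at 124, 155 and 169 CPM, so KO_M0 was higher by 1.50 on the log2 scale (SE 0.23, edgeR's adjusted p = 1.13e-05). Within KO, M1 (95.7, 102 and 113 CPM) and M2 (167, 148 and 123 CPM) were both lower than M0, by log2 fold changes of -2.01 (SE 0.23, edgeR's adjusted p = 7.65e-08) and -1.53 (SE 0.23, edgeR's adjusted p = 4.79e-06). None of these groups overlapped KO_M0. Within WT, neither M1 nor M2 was called against M0 (log2 fold changes -0.08 and 0.11, edgeR's adjusted p = 0.865 and 0.762).

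After AP-3-84, Scarb2 in KO_M0 fell to 128, 100 and 292 CPM (log2 change -1.27, SE 0.23, edgeR's adjusted p = 0.000185). Replicate 3 was again the one nearest to vehicle, and the log2 fold change was -1.87 without it. With only the 6 libraries of the contrast fitted the call was lost (edgeR's adjusted p = 0.0742, from 1.69e-09 to 0.0742 across the alternatives run). The treated WT_M0 libraries stood at 231, 190 and 153 CPM, with overlap and no call (log2 change 0.35, edgeR's adjusted p = 0.634). The difference of the KO_M0 and WT_M0 responses was itself called (-1.63, SE 0.32, edgeR's adjusted p = 0.00092), and was -2.23 without KO_M0 AP-3-84 replicate 3. In thio, Scarb2 fell from 363, 367 and 372 CPM to 301, 303 and 315 CPM (log2 change -0.25, SE 0.05, edgeR's adjusted p = 0.00948), with no overlap. That call was lost with all 48 libraries in one fit (edgeR's adjusted p = 1).

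Olr1 (ENSMUSG00000030162, chr6:129485244-129507165, minus strand), the lectin-like receptor of oxidized lipoprotein, was low in bone marrow-derived cells. KO_M0 vehicle had 0 counts in all 3 libraries and WT_M0 vehicle stood at 0.677, 1.22 and 0.259 CPM, or 9 counts in all. With the empty group set to 3 counts in all, KO_M0 was 2.64-fold lower than WT_M0 (edgeR's adjusted p = 0.0196). That call was lost without WT_M0 replicate 2 (edgeR's adjusted p = 0.0732) and without KO_M0 replicate 1, 2 or 3 (0.0533, 0.0505 and 0.0609), with 0.0143 to 0.0732 across the alternatives run. Olr1 was higher in polarized cells of both genotypes. KO_M1 had 21 counts and KO_M2 28 counts, 6.38-fold and 8.40-fold higher than KO_M0 set to 3 counts (edgeR's adjusted p = 0.000776 and 0.000326). Of the 21 counts, 12 were in KO_M1 replicate 2, and without it the fitted fold moved 1.56 times with the call kept (edgeR's adjusted p = 0.00583). These folds allow for counting error in the empty group only and take the counts of the other group as they stand, so they are not lower limits. The reads carry no molecular identifiers and are not independent molecules.

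In WT, Olr1 stood at 4.20, 6.11 and 3.57 CPM in M1 and 22.1, 6.15 and 4.21 CPM in M2, both above every WT_M0 library. The log2 fold changes were 2.63 in M1 (SE 0.68, edgeR's adjusted p = 0.00797) and 3.85 in M2 (SE 0.67, edgeR's adjusted p = 7.06e-05). The M1 call was lost without WT_M0 replicate 3 (edgeR's adjusted p = 0.0528, from 0.00165 to 0.0528 across the alternatives run), and the M2 value was 2.77 without WT_M2 replicate 1. KO_M2, at 4.05, 1.12 and 2.00 CPM, was below WT_M2 (log2 change -2.19, SE 0.58, edgeR's adjusted p = 0.0293). That call was lost without WT_M2 replicate 1 (-1.12, edgeR's adjusted p = 0.315), and also without KO_M2 replicate 2 or 3 (edgeR's adjusted p = 0.151 and 0.146, from 0.00208 to 0.603 across the alternatives run). Peritoneal libraries held more, at 16.6, 17.6 and 16.4 CPM in ascites and 20.7, 23.7 and 23.0 CPM in thio. The ascites value was lower (log2 change -0.35, SE 0.11, edgeR's adjusted p = 0.0209). Leaving out ascites replicate 1 or 3 or thio replicate 2 or 3 lost that call (edgeR's adjusted p = 0.0626, 0.0681, 0.0846 and 0.0654, from 0.0134 to 0.467 across the alternatives run).

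Stab1 (ENSMUSG00000042286, chr14:31139013-31168641, minus strand), a receptor that clears SPARC and acetylated lipoprotein, was also highest in KO_M0 vehicle. KO_M0 vehicle stood at 631, 702 and 734 CPM and WT_M0 vehicle at 245, 300 and 325 CPM, with no overlap and a log2 fold change of 1.29 (SE 0.30, edgeR's adjusted p = 0.00168). KO_M1 (78.4, 145 and 95.6 CPM) was lower than KO_M0 by -2.73 (SE 0.32, edgeR's adjusted p = 1.66e-07) and KO_M2 (50.8, 97.6 and 65.5 CPM) by -3.30 (SE 0.33, edgeR's adjusted p = 1.4e-08). The 3 KO_M0 libraries lay far above every polarized KO library. In WT, M2 (119, 120 and 202 CPM) was lower than M0 by -0.98 (SE 0.30, edgeR's adjusted p = 0.0181). This call was lost without WT_M0 replicate 3 (edgeR's adjusted p = 0.0606) and without WT_M2 replicate 1 or 2 (0.0733 and 0.0862, from 3.49e-06 to 0.0862 across the alternatives run).

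With AP-3-84, Stab1 fell in KO_M0 to 262, 150 and 448 CPM (log2 change -1.29, SE 0.30, edgeR's adjusted p = 0.00297). In WT_M0 the treated libraries, at 530, 461 and 355 CPM, all lay above vehicle, without a call (log2 change 0.62, SE 0.30, edgeR's adjusted p = 0.519). The difference of these responses was called (-1.91, SE 0.42, edgeR's adjusted p = 0.00289). The KO_M0 call was lost with only its 6 libraries fitted (edgeR's adjusted p = 0.0632, from 8.15e-10 to 0.0632 across the alternatives run). In thio, Stab1 fell from 127, 124 and 115 CPM to 92.1, 77.0 and 91.8 CPM, with no overlap (log2 change -0.48, SE 0.08, edgeR's adjusted p = 0.00212). That call was lost with all 48 libraries in one fit (edgeR's adjusted p = 0.969). In ascites the libraries also did not overlap, with 116, 115 and 134 CPM against 102, 102 and 104 CPM, and no call (log2 change -0.20, edgeR's adjusted p = 0.359). An exon of Stab1 overlaps one of Nt5dc2 on the other strand, and whether counting used strand is not given in the sources used here. Nt5dc2 also fell in KO_M0 after AP-3-84 (193 to 94.9 CPM, log2 fold change -1.06, edgeR's adjusted p = 0.0107), was lower in WT_M2 than in WT_M0 (-0.99, edgeR's adjusted p = 0.0145), and was not called in KO_M0 against WT_M0 (0.24, edgeR's adjusted p = 0.546) or in thio after AP-3-84 (-0.14, edgeR's adjusted p = 0.716). Its part in the Stab1 values was not tested.

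**Figure D2:**
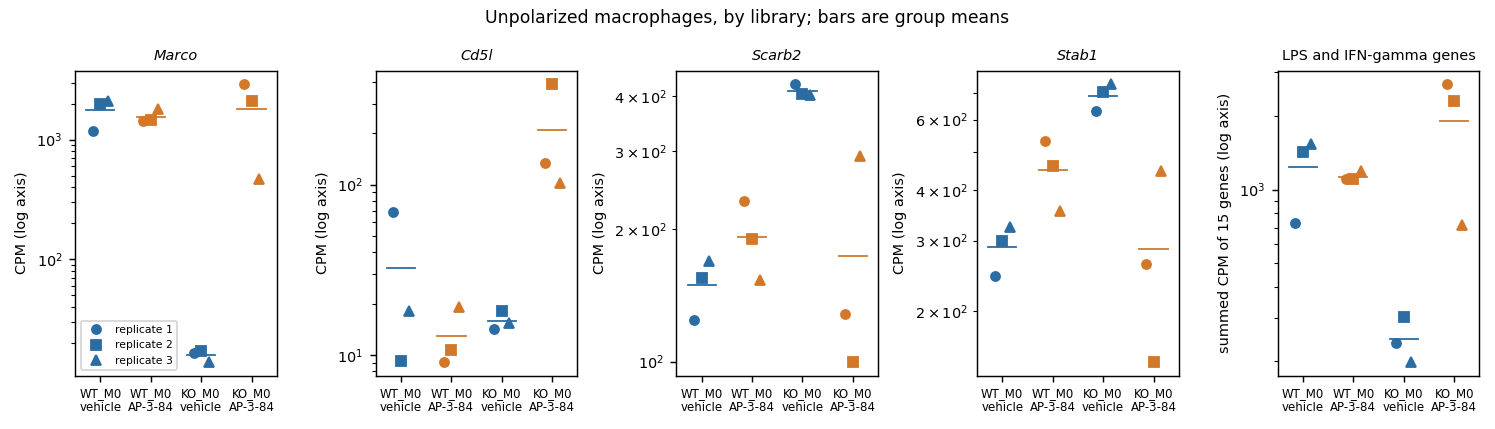
Levels of Marco, Cd5l, Scarb2 and Stab1 (CPM, log axis) and the summed level of 15 LPS and IFN-γ genes in the 12 unpolarized (M0) libraries: circles, squares and triangles are replicates 1, 2 and 3, bars are group means. In KO_M0 after AP-3-84, replicate 3 lies nearest to vehicle for Marco, Cd5l, Scarb2, Stab1 and the gene sum (715 CPM against 2680 and 2290 CPM). Cd5l is highest in replicate 2 (388 CPM).

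Cd5l (ENSMUSG00000015854, chr3:87357881-87371073, plus strand), a secreted protein linked to macrophage survival and lipid metabolism, split the series by origin. It stood at 505 to 637 CPM in the 12 peritoneal libraries and at 1.91 to 388 CPM in the 36 bone marrow-derived libraries. Origin goes with depth, source and mice here, so no test was made between the 2. Ascites and thio overlapped and were not called apart (log2 change 0.10, SE 0.07, edgeR's adjusted p = 0.333). Several bone marrow-derived groups held 1 or 2 libraries well above the others: 69.3, 9.25 and 18.1 CPM in WT_M0 vehicle, 67.6, 8.78 and 42.6 CPM in KO_M1 vehicle, 2.70, 4.05 and 59.2 CPM in KO_M2 vehicle, and 82.0, 65.9 and 6.72 CPM in WT_M2 after AP-3-84.

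KO_M0 vehicle was even, at 14.1, 18.2 and 15.3 CPM, and AP-3-84 raised Cd5l there to 135, 388 and 102 CPM. All treated libraries were above all vehicle libraries (log2 change 3.68, SE 1.01, edgeR's adjusted p = 0.011). The call was lost without AP-3-84 replicate 2 (2.89, edgeR's adjusted p = 0.085, from 2.02e-47 to 0.085 across the alternatives run). The response differed from that in WT_M0 by 5.02 (SE 1.40, edgeR's adjusted p = 0.0155). That difference was lost without KO_M0 AP-3-84 replicate 2 (4.22, edgeR's adjusted p = 0.0649) and without WT_M0 vehicle replicate 1, the 69.3 CPM library (3.77, edgeR's adjusted p = 0.0914, from 3.2e-45 to 0.0914 across the alternatives run). In vehicle, KO_M1 was above WT_M1 (2.70, 3.99 and 3.06 CPM) with a log2 fold change of 3.60 (SE 1.18, edgeR's adjusted p = 0.0482). This call was lost without any of the 3 WT_M1 libraries (edgeR's adjusted p = 0.139, 0.122 and 0.131) and without KO_M1 replicate 1 or 3 (0.166, with a log2 change of 2.99, and 0.108, from 9.13e-33 to 0.166 across the alternatives run).

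Dab2 (ENSMUSG00000022150, chr15:6299788-6440712, plus strand), the clathrin adaptor, was chosen for KO_M2. KO_M2 vehicle stood at 156, 320 and 518 CPM and KO_M2 after AP-3-84 at 142, 90.6 and 121 CPM. The treated libraries all lay below the vehicle ones, and the vehicle libraries were themselves far apart. The highest of them, replicate 3, has a neutrophil sum of 3140 CPM against 331 and 596 CPM and a macrophage marker sum of 6870 CPM against 20100 and 10200 CPM. The fitted level was 2.81-fold lower (log2 change -1.49), and the log2 fold change was -1.02 without that library and -1.83 without vehicle replicate 1. The part of those markers in the Dab2 level was not tested.

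Outside that contrast, Dab2 was higher in ascites than in thio, at 287, 282 and 299 CPM against 80.5, 72.8 and 73.4 CPM (log2 change 2.00, SE 0.08, edgeR's adjusted p = 1.82e-12). In KO_M0 it fell with AP-3-84 from 403, 425 and 472 CPM to 221, 235 and 268 CPM (log2 change -0.87, SE 0.28, edgeR's adjusted p = 0.0254). These libraries did not overlap. Treated replicate 3, at 268 CPM, was again the one nearest to vehicle, though not far from the other 2 for this gene. The call was nonetheless lost without vehicle replicate 2 or 3 (edgeR's adjusted p = 0.0526 and 0.0842) and without AP-3-84 replicate 1 or 2 (0.101 and 0.107, from 8.66e-05 to 0.107 across the alternatives run). In WT_M0 the treated libraries, at 298, 452 and 399 CPM, also lay below vehicle (692, 497 and 479 CPM), without a call (log2 change -0.55, SE 0.28, edgeR's adjusted p = 0.545), and the difference of the responses was not called (-0.33, SE 0.39, edgeR's adjusted p = 0.612).

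Against M0, Dab2 was lower in WT_M2 (405, 206 and 286 CPM, log2 fold change -0.90, SE 0.28, edgeR's adjusted p = 0.0189) and in KO_M1 (256, 315 and 229 CPM, -0.73, SE 0.28, edgeR's adjusted p = 0.0327). The WT_M2 call was lost without WT_M0 replicate 1 (edgeR's adjusted p = 0.106) and without WT_M2 replicate 2 or 3 (0.114 and 0.0667, from 1.82e-05 to 0.114 across the alternatives run). The KO_M1 call was lost without KO_M0 replicate 2 or 3 (edgeR's adjusted p = 0.0607 and 0.102) and without KO_M1 replicate 1 or 3 (0.0838 and 0.119, from 0.000927 to 0.119 across the alternatives run). In WT_M2 the libraries given AP-3-84 stood at 541, 510 and 361 CPM and overlapped vehicle, without a call (log2 change 0.67, SE 0.28, edgeR's adjusted p = 0.308). An exon of Dab2 overlaps the pseudogene Gm18888 on the opposite strand.

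Counted over the set, AP-3-84 left most members without a call. A gene was called at an edgeR's adjusted p under 0.05. In ascites 0 of 9 members were called, where 1.79% of all genes tested were (1.69% higher). There 4 of 9 members had an unadjusted p under 0.05, as had 1804 of the 16955 genes tested. In thio 0 rose and 2 of 9 fell (Scarb2 and Stab1), where 4.32% of all genes were called, 2.51% higher and 1.82% lower. The counts were 0 of 9 in WT_M0 (0.144% of all genes), 0 of 8 in WT_M1 (0.017%), 0 of 9 in WT_M2 (1.21%), 0 of 8 in KO_M1 (0%) and 0 of 8 in KO_M2 (0.0509%, 0.034% higher). In that order, 2, 0, 5, 0 and 1 members had an unadjusted p under 0.05. Of the 11779 genes tested, 1107, 857, 1386, 206 and 1454 had one. DESeq2 called 7 pairs of a member and a population where edgeR called 6, and shared all 6. The other was Marco in WT_M2, where the vehicle mean rests on replicate 1.

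KO_M0 was the population with most member calls: Cd5l rose, and Scarb2, Stab1 and Dab2 fell, which is 4 of 8 tested. Of all genes tested, 20.7% were called in KO_M0, 12.1% higher and 8.57% lower, so many genes moved with these. The LPS and IFN-γ sum, Adgre1 and the T cell sum moved in the same libraries, and their part in the member responses was not tested. The contrast shares its vehicle libraries with KO_M0 against WT_M0. The median log2 fold change was 0.24 over the 8 members and -0.03 over all genes tested. The response differed between KO_M0 and WT_M0 for 3 of 8 members (Scarb2, Stab1 and Cd5l), against 17% of all genes. In the 5 other differences between responses no member was called by edgeR, with 0.118% of genes called for ascites minus thio (0.0767% higher), 0.00849% for KO_M1 minus WT_M1, 1.77% for KO_M2 minus WT_M2, 0.0255% for WT_M1 minus WT_M0 and 0.136% for WT_M2 minus WT_M0. Members at an unadjusted p under 0.05 numbered 2, 0, 3, 1 and 3. Over all genes tested there were 1295 of 16955 for ascites minus thio, and 831, 1815, 799 and 1361 of 11779 for the other 4. DESeq2 added Msr1 in KO_M0 minus WT_M0 and Cd5l in KO_M2 minus WT_M2.

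**Figure D3:**
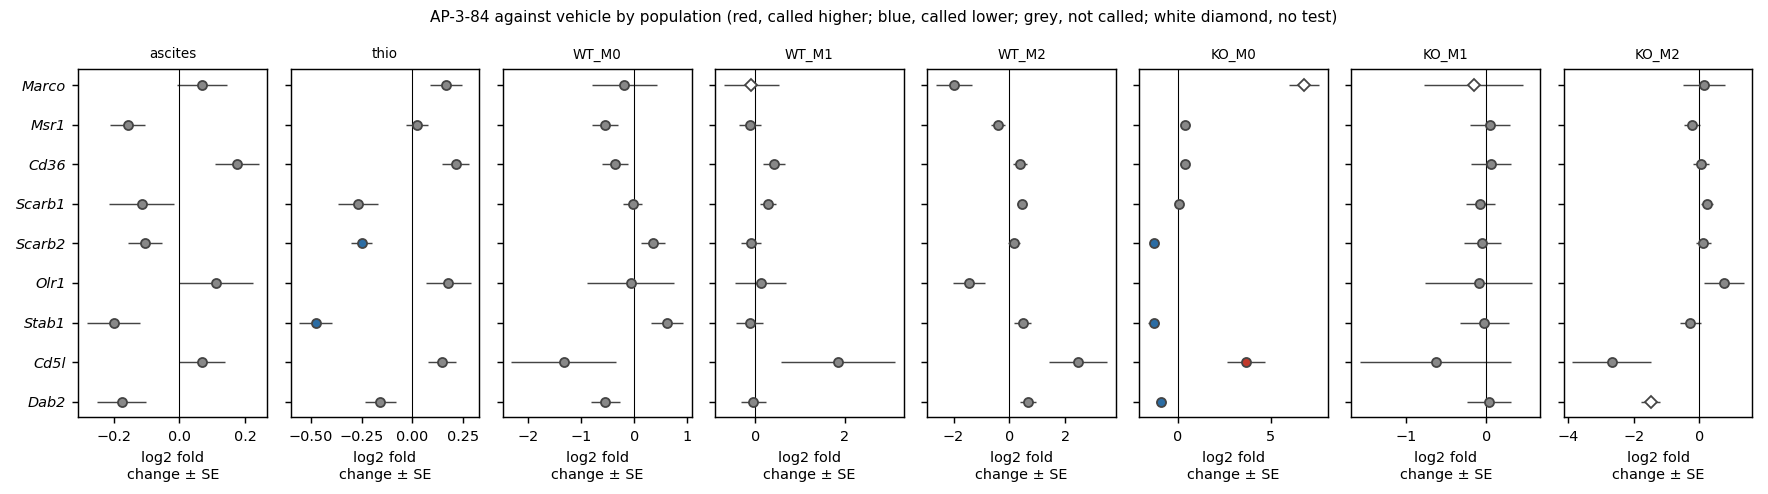
Log2 fold change of AP-3-84 against vehicle with its SE for the 9 genes in each of 8 populations (each panel has its own axis). Red is called higher, blue called lower, grey not called, and a white diamond has no test because the contrast chose the gene. Olr1 in KO_M0 is not drawn because vehicle had 0 counts. Coloured points are in thio (Scarb2 and Stab1) and KO_M0 (Scarb2, Stab1, Cd5l and Dab2).

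Among vehicle libraries, 19 of 34 pairs of a member and a comparison were called between polarized cells and M0. For M0 cells the labels give no further 24 h, so agent and time in culture may differ together. In WT_M1, 2 of 8 members were higher (Msr1 and Olr1) and 0 lower, against 8.01% and 7.49% of all genes. In WT_M2, 2 of 9 were higher (Cd36 and Olr1) and 3 lower (Marco, Stab1 and Dab2), against 23.4% of all genes, 12.7% higher and 10.7% lower. In KO_M1, 2 of 8 were higher (Msr1 and Olr1) and 3 lower (Scarb2, Stab1 and Dab2), against 22.8% and 21.8%. In KO_M2, 4 of 9 were higher (Marco, Msr1, Cd36 and Olr1) and 3 lower (Scarb1, Scarb2 and Stab1), against 38% of all genes, 20.1% higher and 18% lower. Contrasts within a genotype share the same M0 libraries. Marco in WT_M2 and KO_M2 is in these counts, the 19 of 34 among them, although it shares M0 libraries with the contrasts that chose it. Its calls there are a description, and without Marco 4 of 8 and 6 of 8 members were called. The Marco call was lost in WT_M2 without WT_M0 replicate 2 or 3 or WT_M2 replicate 2 or 3 and with only the libraries compared. In KO_M2 it was lost without KO_M0 replicate 3 or KO_M2 replicate 3. The KO_M2 count also holds Dab2, not called, whose KO_M2 vehicle libraries entered the contrast that chose it. The LPS and IFN-γ genes also differed between M2 and M0. Of the 15, 7 were higher and 0 lower in WT_M2, and 10 higher and 0 lower in KO_M2. Their median log2 fold changes were 1.82 and 2.76, against 0.01 and 0.02 over all genes tested. The part of that state in the member levels was not tested.

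Between genotypes, KO_M0 differed from WT_M0 in 5 of 9 members: Scarb2 and Stab1 were higher, and Marco, Msr1 and Olr1 lower, where 33.2% of all genes were called, 16.4% higher and 16.8% lower. Marco is counted there although both its KO_M0 and its WT_M0 vehicle libraries entered contrasts that chose it, and without Marco 4 of 8 members were called. Of the 15 LPS and IFN-γ genes, 1 was higher and 7 were lower in KO_M0 vehicle than in WT_M0 vehicle. Their median log2 fold change was -2.21, against 0.03 over all genes tested. The part of that state in the member levels was not tested. In M1, 1 of 9 members was higher in KO (Cd5l) and 0 lower, against 5.93% and 5.71%. The 9 include Marco, not called, whose KO_M1 and WT_M1 vehicle libraries entered contrasts that chose it. In M2, 0 members were higher and 2 of 9 lower (Marco and Olr1), against 3.56% of all genes, 1.21% higher and 2.34% lower, and both calls were lost without WT_M2 vehicle replicate 1. The 9 include Dab2, not called, whose KO_M2 vehicle libraries entered the contrast that chose it. Stab1 missed the threshold in M1 and M2 (log2 fold changes -0.88 and -1.03, edgeR's adjusted p = 0.0579 and 0.0571), and DESeq2 called it in both. Between ascites and thio, 3 of 9 members were higher in ascites (Marco, Msr1 and Dab2) and 2 lower (Cd36 and Olr1), against 20.3% and 13.4% of all genes. The epithelial and mesothelial sum and the T cell sum differed between these groups as given above, and neutrophil markers summed to 28 to 32.9 CPM in ascites vehicle and 61.6 to 66.2 CPM in thio vehicle. The part of these markers in the member levels was not tested.

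**Figure D4:**
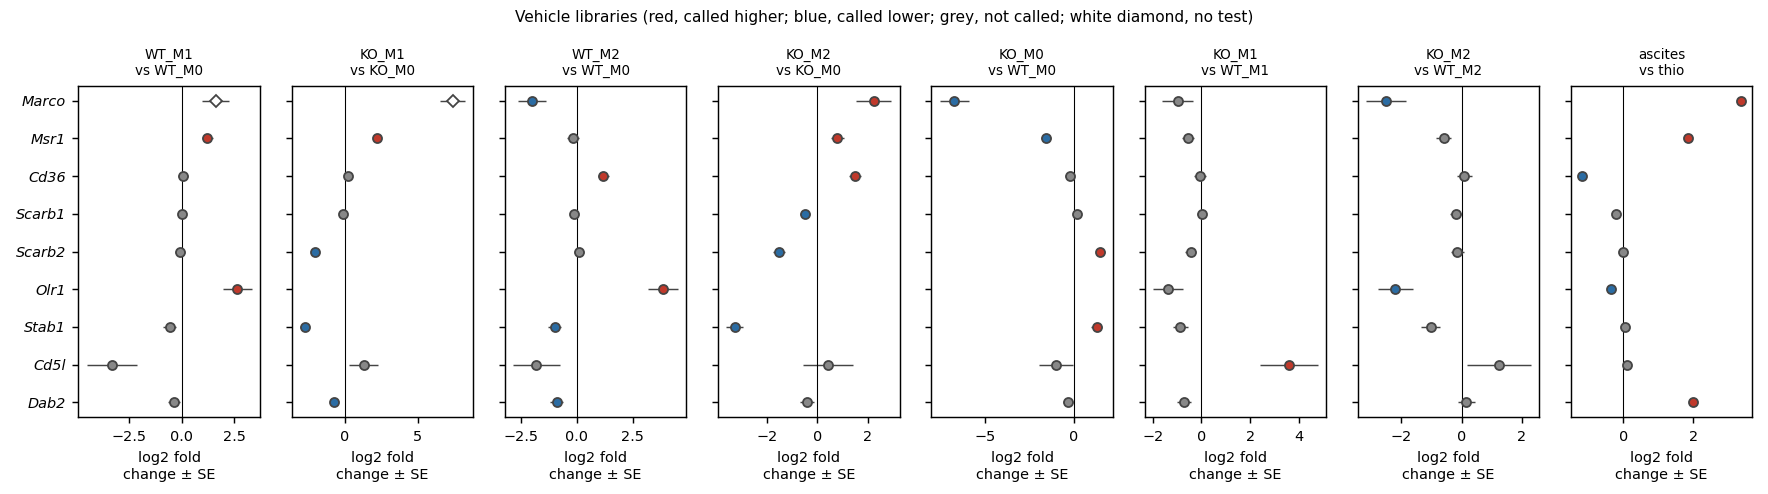
Log2 fold change with its SE for the 9 genes in 8 comparisons of vehicle libraries (each panel has its own axis), with colours as called and white diamonds for contrasts that chose Marco. Coloured Marco points in comparisons with M0 share M0 libraries with the contrasts that chose it, so they are a description. Olr1 is not drawn where KO_M0, with 0 counts, is one of the groups. Msr1 is higher in M1 than M0 in both genotypes (1.23 and 2.23), and Scarb2 and Stab1 are higher in KO_M0 than WT_M0 (1.50 and 1.29).

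Other genes of uptake and lipid handling were followed in 4 lists. Of 18 other scavenger receptors, 11 were tested in bone marrow-derived cells. In KO_M0 after AP-3-84, 0 of 11 rose and 3 fell, where 12.1% and 8.57% of all genes did, with a median log2 fold change of -0.87. Among them Cd68, a class D receptor, fell from 1146 ± 76.0 to 544 ± 261 CPM (means ± SD of 3 libraries, log2 change -1.10, SE 0.22, edgeR's adjusted p = 0.000695), and Lrp1, the receptor of many endocytic ligands, fell by 0.74 (SE 0.20, edgeR's adjusted p = 0.00812). In WT_M2 after AP-3-84, Cxcl16, which also binds oxidized lipoprotein, fell from 489.8 ± 43.9 to 187 ± 21.2 CPM (log2 change -1.38, SE 0.24, edgeR's adjusted p = 0.00171). It was the 1 call of that list there, where 0.976% of all genes fell. Of the 15 LPS and IFN-γ genes, 0 were higher and 8 lower in that contrast, with a median log2 fold change of -2.89. Their part in the Cxcl16 level was not tested. Against M0 in vehicle, 4 of the 11 were higher and 1 lower in WT_M2 (12.7% and 10.7% of all genes). There Clec7a, the beta-glucan receptor, stood at 1609 ± 80.9 against 38.7 ± 13.1 CPM (log2 change 5.38, SE 0.75, edgeR's adjusted p = 1.02e-05). In KO_M1, 0 were higher and 6 lower than in M0 (22.8% and 21.8% of all genes). There Mrc1, the mannose receptor, stood at 59.9 ± 35.3 against 383 ± 47.1 CPM (log2 change -2.71, SE 0.38, edgeR's adjusted p = 3.15e-06). KO_M0 vehicle exceeded WT_M0 vehicle for 3 of the 11, including Clec7a (2.82, SE 0.68, edgeR's adjusted p = 0.00261), and was below it for 2, where 16.4% and 16.8% of all genes were.

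Genes of apoptotic cell uptake (16, of which 12 tested) had 1 higher and 5 lower in KO_M0 after AP-3-84 (12.1% and 8.57% of all genes), with a median of -1.07. Mertk, a receptor kinase for phosphatidylserine bridging proteins, fell from 296 ± 36.7 to 82.3 ± 51.9 CPM (log2 change -1.88, SE 0.39, edgeR's adjusted p = 0.00127), and the integrin subunit gene Itgav from 61.5 ± 2.17 to 30.9 ± 9.44 CPM (-1.02, SE 0.23, edgeR's adjusted p = 0.00155). In KO_M0 vehicle 6 of the 12 were higher than in WT_M0 and 0 lower (16.4% and 16.8% of all genes), Axl by 3.06 (SE 0.42, edgeR's adjusted p = 4.81e-06) and Mertk by 2.18 (SE 0.40, edgeR's adjusted p = 0.000174). In thio, where 15 were tested, AP-3-84 gave 2 higher and 3 lower (2.51% and 1.82% of all genes), and Axl fell from 33.3 ± 0.299 to 20.3 ± 0.633 CPM (log2 change -0.70, SE 0.08, edgeR's adjusted p = 8.5e-05). Ascites held more Axl than thio (485 ± 29.2 against 33.3 ± 0.299 CPM, 3.92, SE 0.09, edgeR's adjusted p = 1.31e-15) and less Mfge8 (52.3 ± 2.03 against 1989 ± 37.9 CPM, -5.19, SE 0.09, edgeR's adjusted p = 1.01e-16).

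All 17 genes of lipoprotein and lipid handling were tested. WT_M2 had 9 higher than WT_M0 and 0 lower, against 12.7% and 10.7% of all genes. KO_M0 after AP-3-84 had 1 higher (Nr1h3, the liver X receptor gene, 22.3 ± 3.83 to 56.6 ± 24.0 CPM, log2 fold change 1.31, SE 0.24, edgeR's adjusted p = 0.000273) and 7 lower, against 12.1% and 8.57% of all genes, with a median of -0.67. In thio AP-3-84 lowered 2 of 17 (1.82% of all genes), Fabp5 from 6033 ± 156 to 4360 ± 246 CPM (log2 change -0.46, SE 0.06, edgeR's adjusted p = 0.000134) and the cholesterol exporter gene Abca1 from 90.9 ± 6.30 to 64.2 ± 1.11 CPM (-0.49, SE 0.07, edgeR's adjusted p = 0.000217). Of 13 clathrin and DAB2 partner genes, 12 were tested, and KO_M0 after AP-3-84 had 3 higher and 1 lower (12.1% and 8.57% of all genes) with a median of 0.09. Ap2m1, a subunit of the adaptor that DAB2 works with, rose there by 0.59 (SE 0.11, edgeR's adjusted p = 0.000189). Over all genes tested in KO_M0 the median was -0.03. Lists are described by counts and medians only, and 1 library of the 3 treated ones again lay nearest to vehicle, since the summed level of other scavenger receptors was 1650, 1160 and 2440 CPM there against 2910 to 3020 CPM in vehicle.

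Genes with the most similar pattern were taken by Pearson r over the 12 group means of log2 CPM in bone marrow-derived cells, among 8431 genes. The means share libraries and are dominated by the polarization groups, so r is a description. For Marco these were Fpr1 (r = 0.991), Fpr2 (0.979), Hcls1 (0.976), Ehd1 (0.976) and Siglece (0.971), and for Dab2 Pgm2l1 (0.892), Ggact (0.88), Mcu (0.866), Maged1 (0.857) and Itgav (0.856). For Msr1 the closest was Fam162a (0.986), for Cd36 Ap2m1 (0.968), for Scarb1 Mark2 (0.857), for Scarb2 Adck2 (0.982), for Olr1 Cox8a (0.967), for Stab1 Serinc3 (0.952) and for Cd5l Npepl1 (0.866). Within the set, r was 0.8 between Marco and Msr1, 0.696 between Scarb2 and Stab1, 0.667 between Stab1 and Dab2, 0.659 between Cd36 and Olr1, and -0.696 between Marco and Scarb2.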

How the data were processed

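RNA of 48 macrophage libraries was measured by 3' tag sequencing (QuantSeq FWD, single reads), per the labels' protocols. The authors deposited 1 table of whole-number read counts per gene, and the submitters' processing notes name RSEM, Bowtie2 and DESeq2 without their roles. For the counting, the genome build and strand setting were not given in the sources used here. Groups came from titles and descriptions. Of 51789 gene IDs, 51596 matched a symbol.

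From the deposited counts, CPM were computed with TMM factors over all 48 libraries. Tests used edgeR 4.0.16 (R 4.3.3, quasi-likelihood, TMM, filterByExpr, robust), fitted apart for 12 peritoneal libraries (16955 genes tested) and 36 bone marrow-derived libraries (11779 genes tested). Benjamini-Hochberg adjustment ran over all genes tested in each of 22 comparisons, with a threshold of 0.05. The script was tested on simulated data. DESeq2 1.42.0, other scalings, other filters, other sets of libraries in the fit, a replicate block and leaving out each library were alternatives. Gene positions are GRCm38 (GENCODE), and promoters are RefSeq (GRCm38.p6).

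The members and lists were chosen with earlier results of these data known. All 9 members are named in every comparison by value or count. From each pathway list, up to 3 called genes with the lowest adjusted p per family of comparisons could be named, and similar genes are those with the highest r.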

Additional observations from a re-analysis of the deposited data

Results flagged for a closer look

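For 3 of 8 members tested the response to AP-3-84 differed between KO_M0 and WT_M0 by the test of the difference itself (edgeR, n = 3 libraries per group). Of all genes tested, 17% were called in the same contrast. The LPS and IFN-γ sum, Adgre1 and the T cell sum moved in the same KO_M0 libraries, and their part was not tested. The difference in log2 fold change, KO_M0 minus WT_M0, was -1.63 for Scarb2 (SE 0.32, edgeR's adjusted p = 0.00092; -2.23 without KO_M0 AP-3-84 replicate 3), and every treated KO_M0 library was below every vehicle library. For Stab1 it was -1.91 (SE 0.42, edgeR's adjusted p = 0.00289), with 3 of 3 treated libraries below vehicle in KO_M0 and 3 of 3 above vehicle in WT_M0. For both genes KO_M0 vehicle had the highest mean of the 16 groups (410 CPM for Scarb2, 689 CPM for Stab1). The treated KO_M0 means were 173 and 287 CPM, and the WT_M0 vehicle means 149 and 290 CPM. The same KO_M0 vehicle libraries enter KO_M0 against WT_M0. Nt5dc2, which overlaps an exon of Stab1 on the other strand, differed by -0.99 without a call (edgeR's adjusted p = 0.094). Its part in the Stab1 values was not tested. The third member was Cd5l. For Cd5l the difference was 5.02 (SE 1.40, edgeR's adjusted p = 0.0155), with 3 of 3 treated KO_M0 libraries above vehicle. The Cd5l call was lost without WT_M0 vehicle replicate 1 (3.77, edgeR's adjusted p = 0.0914) and without KO_M0 AP-3-84 replicate 2 (4.22, edgeR's adjusted p = 0.0649). Groups hold 3 libraries each, so single libraries were not tested as outliers.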

How the results depend on the processing

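Of 41 called pairs of a member and a comparison, 20 kept their call under the alternatives run apart from the minimum fold change, 21 lost it under at least 1, 16 of them without a single library, and 0 reversed. The 41 include Marco in WT_M2 and KO_M2 against M0 and in KO_M0 against WT_M0, which share libraries with the contrasts that chose it. Without the filter on low counts, calls rose from 6 to 13 for AP-3-84, from 8 to 16 for KO against WT and from 3 to 12 for differences of responses. With the further demand of a log2 change of 1 or more in either direction, AP-3-84 calls were 3 and calls in the other pathway lists 123 against 227. Differences of responses had 6 calls with all 48 libraries in one fit and 5 with DESeq2. The cause was not tested. Leaving out 1 library gave 4 to 7 calls for AP-3-84, 16 to 20 for polarization, 5 to 10 for KO against WT (5 without WT_M2 vehicle replicate 1), 4 to 5 for ascites against thio, 2 to 5 for differences (5 without WT_M0 vehicle replicate 3) and 196 to 251 for the pathway lists. Without the 3 libraries of high neutrophil sum, a setting chosen after seeing the data, calls were 6, 21, 7 and 4 for AP-3-84, polarization, KO against WT and differences.

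Scaled by total counts alone, the highest vehicle means were 4580 CPM for Marco, 1194 CPM for Msr1, 1122 CPM for Cd36, 448 CPM for Scarb2, 752 CPM for Stab1 and 584 CPM for Cd5l, the last being 561 CPM with TMM within an origin. With the replicate number as a block, calls were 5, 19, 7, 5 and 3 in the 5 families, and 215 in the pathway lists. The block lost Scarb2 in thio (edgeR's adjusted p = 0.0578), Cd5l in KO_M1 against WT_M1 (0.0638) and Marco in KO_M2 against WT_M2 (0.0588). Outside KO_M1 and WT_M2, same-numbered libraries did not deviate together (24 pairs in all, r from -0.53 to 0.522, 4 over 0.1). The 4 were KO_M1 numbers 1 and 2 (0.45 and 0.522) and WT_M2 numbers 1 and 3 (0.261 and 0.27). The remaining number had an r of -0.0552 in KO_M1 and -0.146 in WT_M2. In all, 4 libraries correlated best with their own number, 2 in each of these populations. Olr1 rests on 0 to 28 counts per group in the KO vehicle groups, so depth limits its fold changes.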
